A study of Mus musculus with 18 samples.

Results

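The 39 genes described here carry a fatty acid from the blood into the cardiomyocyte and through its breakdown in the mitochondrion, or set the level of that machinery. They were taken by symbol from a list of uptake, activation, carnitine shuttle, beta-oxidation, electron transfer, thioesterase, lipid droplet, fuel switch and transcriptional control genes, and each of the 39 matched 1 row of the 51435 gene rows in the tables. All 39 passed the minimum of more than 1 count over the 18 libraries that left 24804 genes for testing. Poly(A) RNA was sequenced from the left ventricle (LV) of 18 mice, 9 WT and 9 WWP2Mut/Mut, of a C57BL/6J-based line. WWP2 is an E3 ubiquitin ligase, and WWP2Mut/Mut mice carry on both alleles a 4-bp CRISPR/Cas9 deletion in exon 2 of Wwp2, a frame shift that would disrupt the full-length and N-terminal isoforms and is unlikely to affect the C-terminal one. The mutation is germline, so every cell type of the heart carries it. Every mouse, WT included, received angiotensin II (AngII), a peptide that raises blood pressure and drives cardiac remodelling, at 500 ng/kg/min for 28 days from a minipump implanted at 8 weeks of age. No uninfused heart was analysed here, so the values describe the AngII-treated LV and not its response to AngII.

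Fatty acids are the main fuel of the adult heart. Lipoprotein lipase frees them at the vessel wall, CD36 and the fatty acid transport proteins take them up, acyl-CoA synthetases activate them, and carnitine palmitoyltransferase 1 admits them to the mitochondrion, where a cycle of dehydrogenation, hydration, oxidation and thiolysis shortens them and passes electrons to the respiratory chain through the electron transfer flavoprotein. The nuclear receptors PPARα and the estrogen-related receptors, with the coactivators PGC-1α and PGC-1β, drive transcription of this machinery, and in the hypertrophied heart its expression is known to decline.

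Promoter windows in the RefSeq annotation of GRCm38.p6, from 250 bases before to 50 bases after an annotated start, were found for 33 of the 39 genes. PPAR and estrogen-related receptors recognise copies of the hexamer AGGTCA, which stood on either strand in a window of 8 of these 33 genes (24.2%) and of 18.1% of the 27025 genes in the table. The 8 genes were Acadm, Acadvl, Cd36, Cpt1a, Echs1, Plin5, Pparg and Ucp3. A pair of hexamers 1 base apart (AGGTCANAGGTCA), the arrangement bound by PPAR, and the extended estrogen-related receptor sequence TCAAGGTCA were in none of the 33 genes' windows and in 0.0481% and 0.466% of all genes; both contain the hexamer. A match describes letters in these windows only, and an annotated start can lie inside a gene. The printed Cd36 window lies inside the span of that minus-strand gene (chr5:17781690-17888801), away from its upstream end at 17888801. The windows of 4 members described in the values that follow are printed, 3 of them (Acadm, Cd36 and Ucp3) for their hexamers, in capitals (TGACCT where it stands on the opposite strand), and that of Hadhb for the 228 bases, in capitals, that it shares with the window of Hadha. The latter genes encode the 2 subunits of the mitochondrial trifunctional protein and are transcribed in opposite directions, from starts that are 273 bases apart in the RefSeq annotation of these windows.
Acadm (chr3:153944594-153944893, minus strand): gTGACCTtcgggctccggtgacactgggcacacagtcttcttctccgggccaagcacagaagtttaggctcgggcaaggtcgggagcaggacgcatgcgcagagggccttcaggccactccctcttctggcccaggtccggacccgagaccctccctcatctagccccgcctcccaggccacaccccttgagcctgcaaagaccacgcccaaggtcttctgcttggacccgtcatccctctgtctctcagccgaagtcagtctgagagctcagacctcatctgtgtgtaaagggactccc
Cd36 (chr5:17835847-17836146, minus strand): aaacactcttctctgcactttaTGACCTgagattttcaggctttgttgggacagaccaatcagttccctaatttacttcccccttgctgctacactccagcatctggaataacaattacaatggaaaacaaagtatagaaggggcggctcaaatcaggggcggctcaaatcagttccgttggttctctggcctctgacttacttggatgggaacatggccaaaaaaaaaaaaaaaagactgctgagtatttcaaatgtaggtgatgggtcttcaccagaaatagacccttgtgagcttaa
Ucp3 (chr7:100472741-100473040, plus strand): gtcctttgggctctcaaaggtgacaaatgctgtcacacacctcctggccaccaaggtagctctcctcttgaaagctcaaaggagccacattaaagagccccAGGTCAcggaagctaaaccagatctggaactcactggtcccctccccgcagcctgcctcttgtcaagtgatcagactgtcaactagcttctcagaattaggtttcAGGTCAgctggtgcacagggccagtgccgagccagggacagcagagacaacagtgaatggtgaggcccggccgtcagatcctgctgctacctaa
Hadhb (chr5:30155003-30155302, plus strand): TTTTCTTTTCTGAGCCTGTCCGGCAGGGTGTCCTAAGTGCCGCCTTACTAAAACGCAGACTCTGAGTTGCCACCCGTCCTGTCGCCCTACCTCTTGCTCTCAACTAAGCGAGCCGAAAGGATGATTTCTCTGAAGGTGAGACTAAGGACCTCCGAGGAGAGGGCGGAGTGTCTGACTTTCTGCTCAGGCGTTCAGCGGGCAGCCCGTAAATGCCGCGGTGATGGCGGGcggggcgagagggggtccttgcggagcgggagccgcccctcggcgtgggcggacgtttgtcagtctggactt

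The libraries held 24566994 to 37451087 expected counts, and the 39 genes together took 1.16% to 1.99% of the deposited TPM (a level scaled by transcript length and by library) of a mouse. Wwp2 stood at 5.09 ± 0.600 TPM (SD, n = 9) in WT and 1.72 ± 0.528 TPM in WWP2Mut/Mut LV, and the highest mutant value, 3.00 TPM, lay below the lowest WT value, 3.83 TPM, so each library matched its label. Cardiomyocyte markers were high in every mouse, with a summed level of 53640 to 67560 TPM. The liver list (10 secreted or metabolic genes such as Alb) summed to 303 TPM in WT mouse 45-1, 132 TPM in WT mouse 16-1 and 2.53 to 91.2 TPM in the other mice, and the adipocyte list (6 genes such as Adipoq) to 23.6 TPM in WT mouse 45-1, 11.7 TPM in mutant mouse 8-2 and 0.05 to 5.32 TPM elsewhere. WT mouse 43-3 is recorded with an RNA concentration of 1.68 ng/µl, against 88.6 to 321 ng/µl for the other 17, and WT mouse 45-3 with an A260/280 of 214. Each library has a recorded fraction named genebody_bottomhalf, called the gene body coverage fraction here. Its definition is not given in the sources used here, so a higher value is not known to mean more complete coverage. The fraction fell into a lower class of 8 libraries (0.0288 to 0.0341, 4 WT and 4 mutant) and a higher class of 10 (0.0383 to 0.0540, 5 and 5). It averaged 0.0387 ± 0.00861 (SD, n = 9) in WT and 0.0401 ± 0.00825 (SD, n = 9) in mutant libraries (two-sided exact permutation test, p = 0.720).

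The question put to these genes was whether the Wwp2 mutation moved them in the AngII-treated LV. None of the 39 passed the test between genotypes, against 1 of 24804 genes (0.00403%), which was Wwp2 itself (edgeR quasi-likelihood test on expected counts with lane and RNA concentration as covariates, adjusted p below 0.05). None had an unadjusted p below 0.05 either, against 3.66% of all genes, and DESeq2 also called 0 of 39 and gave 0 with an unadjusted p below 0.05. On the log2 scale of this fit (WWP2Mut/Mut over WT), 16 of the 39 differences were above 0 and 23 below, with a median of -0.04 beside -0.01 for all genes tested. The adjusted p of each member was 1 in edgeR, so that differences are given with their standard errors (SE) alone. The standard errors ran from 0.09 to 0.75 with a median of 0.16. For 30 of the 39 genes the 95% interval of the difference lay within 1.5-fold in either direction, and for 35 within 2-fold; Pdk4, Angptl4, Ppara and Esrrg had wider ones. In bulk tissue, fewer cells of a type and less RNA per cell cannot be told apart.

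**Figure D1:**
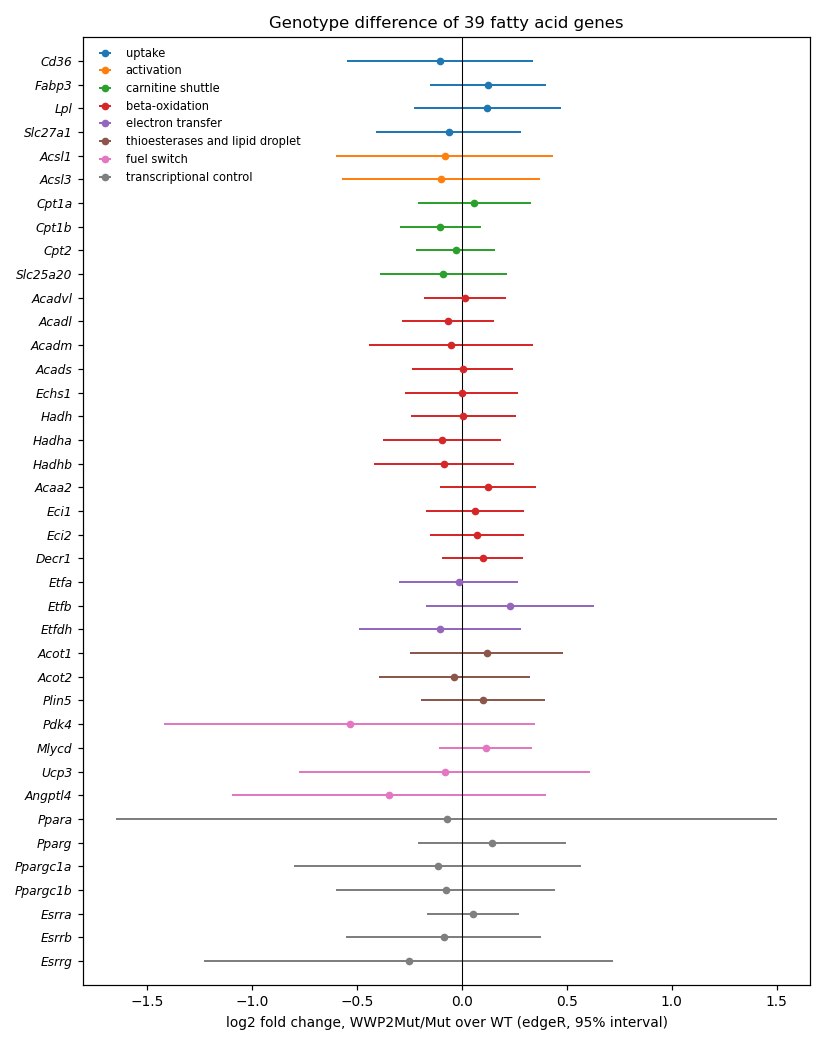
Log2 fold change of each of the 39 genes between WWP2Mut/Mut and WT LV (x axis) by gene (y axis), with 95% intervals from edgeR, n = 9 mice per genotype, coloured by role. Every interval crosses 0, and the widest, that of Ppara, runs from -1.65 to 1.5.

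The count of higher and lower genes moved with the scale. On mean TPM, 2 of the 39 genes (Cpt1a and Pparg) were higher in the mutants and 37 lower. In limma fits on log2(TPM + 1), the members had a median difference of -0.17 and 5.13% of them were above 0, while the 13133 genes with a mean log2 CPM (counts scaled by library size) above 0, called expressed here, had a median of -0.12 and 12.6% above 0. With library totals alone as scaling, 9 of the 39 (23.1%) were above 0, beside 25.4% of expressed genes. Within the 4 lanes, which held 2 or 3 mice of each genotype, the number of the 39 genes with a higher mean TPM in mutants was 35, 5, 2 and 11, and with a higher mean CPM 24, 12, 18 and 25. The direction differed between lanes, and of expressed genes 68.5%, 21.4%, 13.9% and 26.4% were higher on TPM and 56.4%, 51.0%, 49.4% and 49.1% on CPM.

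Uptake genes had the highest summed level of any role, 4810 to 7747 TPM. Fabp3, which encodes the cytosolic fatty acid carrier of heart muscle, stood at 5198 ± 530 TPM (SD, n = 9) in WT and 4883 ± 619 TPM (SD, n = 9) in mutant LV. Its expected counts were not whole in any of the 18 mice, so its reads may be shared. Lpl, lipoprotein lipase, ran from 476 through a median of 729 to 1104 TPM in WT mice and from 531 through 700 to 1140 TPM in mutants, and the ranges overlapped almost throughout. Its log2 difference was 0.12 (SE 0.17). Cd36, the main fatty acid translocase of the cardiomyocyte (ENSMUSG00000002944, chr5:17781690-17888801, GRCm38), had a lowest, median and highest level of 161, 409 and 650 TPM in WT and 164, 302 and 537 TPM in mutant LV. High and low Cd36 libraries occurred in both genotypes, and the log2 difference was -0.11 (SE 0.21). Slc27a1, fatty acid transport protein 1, was at 27.7 to 37.0 TPM in 8 WT mice and at 69.5 TPM in WT mouse 45-1, the library with the highest liver and adipocyte marker sums and the highest sum of the atrial genes Sln, Myl7 and Myl4, whose part in that value was not tested. The 2 acyl-CoA synthetases differed widely in level: Acsl1 averaged 133 ± 63.7 TPM (SD, n = 9) in WT and 117 ± 51.0 TPM in mutant LV, and Acsl3 1.52 ± 0.579 TPM and 1.24 ± 0.406 TPM.

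The carnitine shuttle was dominated by the muscle isoform of carnitine palmitoyltransferase 1. Cpt1b (ENSMUSG00000078937, chr15:89416405-89425863) ranged from 149 through a median of 202 to 260 TPM in WT and from 139 through 158 to 202 TPM in WWP2Mut/Mut LV. The ranges overlapped, and no mutant mouse exceeded the WT median. Its log2 difference was -0.10 (SE 0.09), and the mean TPM differed in a two-sided exact permutation test over the 48620 divisions of the mice at an unadjusted p of 0.0446, which was not past the threshold after adjustment over all genes tested (4.43% of genes had an unadjusted p below 0.05 in that test). Its expected counts were not whole in any of the 18 mice, and Gm44502 is annotated on the same strand across it, so its reads may be shared. Cpt1a, the isoform that predominates in liver, ran from 3.34 through 6.82 to 7.86 TPM in WT and from 4.44 through 5.61 to 8.41 TPM in mutants, with a log2 difference of 0.06 (SE 0.13). The Cpt1b to Cpt1a ratio of TPM was 29.5 to 44.6 in WT, with a median of 33.03, and 21.9 to 35.5 in mutants, with a median of 28.2. Cpt2, the inner membrane transferase, had the smallest error of the set, with a log2 difference of -0.03 (SE 0.09, 95% interval -0.22 to 0.16).

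Of the 12 beta-oxidation enzymes, 7 were above 0 and 5 below, with log2 differences from -0.10 to 0.12 and standard errors from 0.09 to 0.19. Hadhb and Acaa2, the β subunit of the trifunctional protein and the last thiolase of the cycle, were the most abundant enzymes at 821 ± 143 and 520 ± 42.8 TPM in WT (SD, n = 9). Hadha, the α subunit, ran from 175 through 306 to 420 TPM in WT and from 176 through 249 to 351 TPM in mutants, with overlapping ranges and a log2 difference of -0.10 (SE 0.13). The ratio of Hadha to Hadhb, whose promoter windows overlap, was 0.299 to 0.440 in WT mice and 0.292 to 0.415 in mutants. The expected counts of Hadhb were not whole in 17 of the 18 mice, so its reads may be shared. Acaa2 ran from 448 through 534 to 572 TPM in WT and from 448 through 488 to 557 TPM in mutants, with a log2 difference of 0.12 (SE 0.11). Decr1, the reductase that handles unsaturated acyl chains, ran from 92.4 through 111 to 135 TPM in WT and from 92.1 through 102 to 127 TPM in mutants. The groups overlapped, and the log2 difference was 0.10 (SE 0.09). The acyl-CoA dehydrogenases Acadvl, Acadl, Acadm and Acads, which start the cycle on chains of decreasing length, had log2 differences of 0.01, -0.07, -0.05 and 0.00 with standard errors of 0.09 to 0.19.

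Etfb, the β subunit of the electron transfer flavoprotein (ENSMUSG00000004610, chr7:43444083-43457800), had the highest log2 difference of the set in the fit with lane and RNA concentration, at 0.23 (SE 0.19). It was 0.13 to 0.38 with any 1 mouse left out, and 0.09 and not the highest with the coverage fraction added. Its values were 720, 798 and 914 TPM (lowest, median and highest) in WT and 629, 833 and 887 TPM in mutants, a mutant range that began below and ended below that of the WT. The other members of that step, Etfa and the dehydrogenase Etfdh that hands electrons to ubiquinone, had log2 differences of -0.02 (SE 0.14) and -0.10 (SE 0.18). Etfb overlaps 3 annotated loci on its own strand, and its expected counts were not whole in any of the 18 mice. Acot1 and Acot2, thioesterases that split acyl-CoA in the cytosol and the mitochondrion, are near-identical neighbours on chromosome 12 with counts that were not whole in 18 of 18 mice, so the split between them is uncertain; their log2 differences were 0.12 (SE 0.17) and -0.04 (SE 0.17). Plin5, which tethers lipid droplets to mitochondria, had one of 0.10 (SE 0.14).

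Among the fuel switch genes, Pdk4, Ucp3 and Angptl4 differed by 9.26, 6.27 and 10.4 times in CPM between their lowest and highest mouse. Pdk4, the kinase that shuts glucose carbon out of the mitochondrion (ENSMUSG00000019577, chr6:5483351-5496309), ran from 32.7 through a median of 121 to 180 TPM in WT and from 19.01 through 58.9 to 207 TPM in WWP2Mut/Mut LV. The mutant range spanned the whole WT range, with mouse 33-1 at 207 TPM and the next mutant at 106 TPM. Its log2 difference of -0.54 (SE 0.42, 95% interval -1.42 to 0.35) was the lowest of the set. Without mutant mouse 33-1 it was -0.87, with an unadjusted p of 0.00281 in edgeR that was not past the threshold after adjustment. Mlycd, the decarboxylase that removes malonyl-CoA, the inhibitor of carnitine palmitoyltransferase 1, ran from 35.5 through 57.0 to 64.8 TPM in WT and from 35.2 through 48.5 to 62.1 TPM in mutants (log2 difference 0.11, SE 0.11). Ucp3, a mitochondrial uncoupling protein of muscle, ran from 4.81 through 9.85 to 38.2 TPM in WT and from 6.50 through 11.0 to 19.97 TPM in mutants, with the top value in WT mouse 45-1. Angptl4, a secreted inhibitor of lipoprotein lipase, ran from 1.21 through 3.15 to 14.9 TPM in WT and from 2.22 through 3.46 to 5.65 TPM in mutants. The mutant values of Angptl4 lay inside the WT range, and its log2 difference was -0.35 (SE 0.36), or -0.50 to -0.02 with any 1 mouse left out. That of Ucp3 was -0.08 (SE 0.33), or -0.22 to 0.22 with any 1 mouse left out.

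The 7 regulators were low in level apart from Esrra, and Ppara and Esrrg had the highest biological coefficients of variation of the 39 genes, 0.796 and 0.547. Ppara, which encodes PPARα (ENSMUSG00000022383, chr15:85734983-85802819), ran from 0.430 through a median of 1.35 to 9.11 TPM in WT and from 0.620 through 1.84 to 9.30 TPM in mutants. Each genotype held Ppara values across the whole range, and the log2 difference of -0.07 had an SE of 0.75 and ran from -0.46 without mutant mouse 22-3 to 0.61 without WT mouse 25-3. Pparg, better known from adipocytes, ran from 2.93 through 4.32 to 6.02 TPM in WT and from 2.54 through 4.64 to 6.58 TPM in mutants (log2 difference 0.14, SE 0.17). Ppargc1a, encoding PGC-1α, ran from 2.81 through 5.35 to 16.8 TPM in WT and from 2.56 through 3.43 to 19.04 TPM in mutants, and Esrra, the most abundant regulator, from 33.7 through 60.1 to 89.2 TPM and from 38.9 through 51.8 to 76.2 TPM. Both sets of ranges overlapped, with log2 differences of -0.12 (SE 0.33) and 0.05 (SE 0.10). Ppargc1b, Esrrb and Esrrg had log2 differences of -0.08, -0.09 and -0.26 with standard errors of 0.25, 0.22 and 0.46, that of Esrrg running from -0.51 to 0.03 with any 1 mouse left out.

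**Figure D2:**
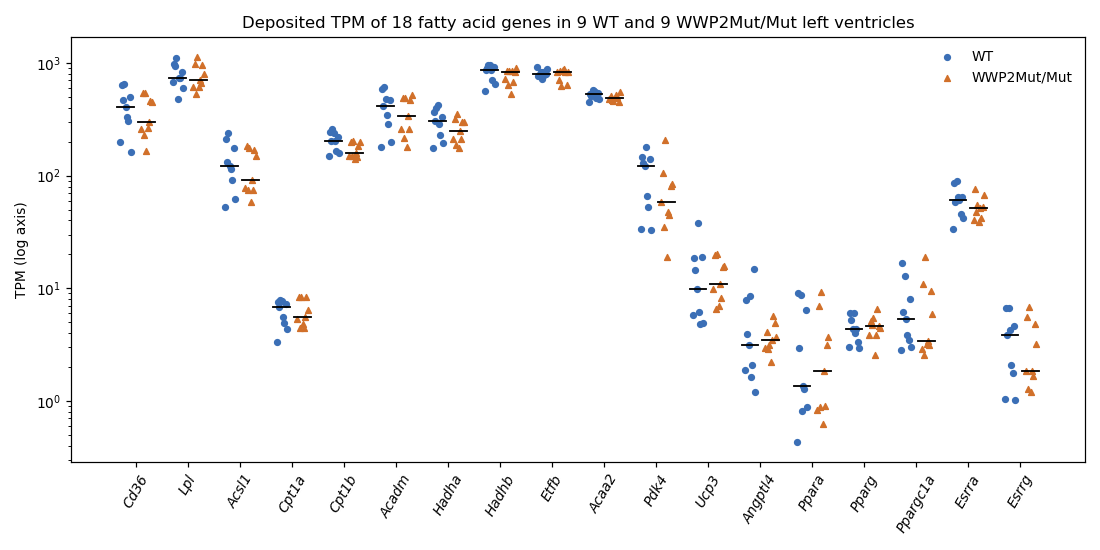
Deposited TPM (y axis, log axis) of 18 of the 39 genes (x axis), 1 point per mouse, WT as circles and WWP2Mut/Mut as triangles, with the median of 9 mice as a bar. The genotypes overlap for each gene shown, and Ppara spreads from 0.430 to 9.30 TPM while Acaa2 stays between 448 and 572 TPM.

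The spread within a genotype was itself ordered. On the CPM scale, the number of the 39 genes above their own median over 18 mice ranged from 4 in WT mice 67-1 and 94-2 and mutant mouse 52-1 to 37 in mutant mouse 8-2. The share of expressed genes above theirs was 48.1%, 49.0% and 46.2% in those 3 mice and 52.3% in mouse 8-2. The high and low mice were of both genotypes: 33 and 34 genes were above the median in WT mice 84-2 and 39-1 and 30 in mutant mouse 33-1. The 4 mice with at most 9 genes above the median (those 3 and mutant mouse 54-1) all belonged to the higher class of gene body coverage. Mutant mouse 53-1 was an exception in that class, with 28 genes above the median, and mutant mouse 62-1 one in the lower class, with 16.

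**Figure D3:**
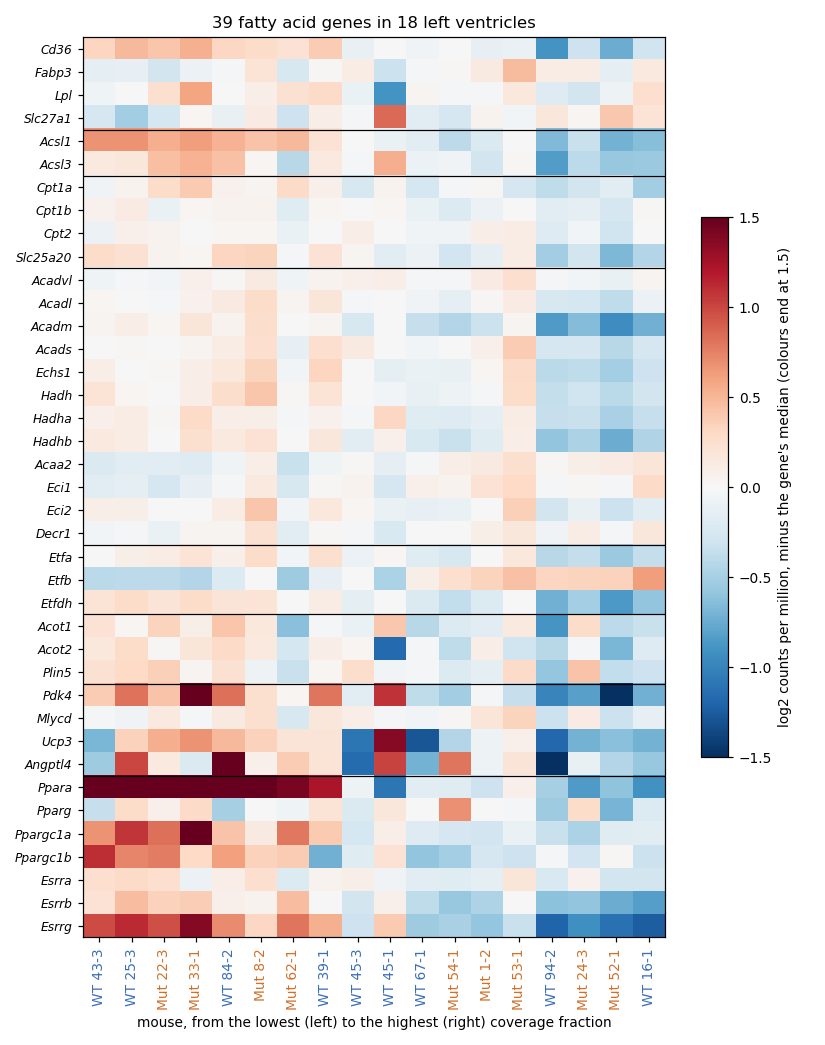
Log2 CPM of the 39 genes (rows, grouped by role) in 18 mice (columns, from the lowest to the highest gene body coverage fraction), each minus the gene's median, with colours ending at 1.5 in either direction. Ppara is above its median in each of the 8 libraries at the left, and WT and mutant mice are mixed along the axis.

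A slope on the recorded coverage fraction was therefore fitted across all genes, a comparison added after the data were seen, with lane, RNA concentration and genotype in the same edgeR model. Of the 39 genes, 22 had a slope past the threshold (56.4%), against 30.9% of the 24804 genes tested and 51.2% of the 13131 with a mean log2 CPM above 0. The share called in either direction was thus near that of expressed genes. By direction, 20 of the 39 fell with coverage (51.3%), against 28.4% of the expressed genes, and 2 rose, against 22.7%. The median slope was -0.19 on the log2 scale per 0.01 of the fraction in the 39 genes, 0.06 in all genes tested and -0.01 in those expressed; no test set the list apart from other genes. With library totals alone as scaling, 28 fell and 1 rose, beside 38.6% of expressed genes that fell and 12.1% that rose, and the median slope was -0.30 against -0.11 in expressed genes. In limma on rescaled TPM 33 fell and 0 rose, beside 57.2% of expressed genes that fell and 4.09% that rose, and the medians were -0.48 and -0.22. The members' counts thus moved with those of expressed genes.

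The 2 steepest slopes were those of regulators. Ppara fell by 1.70 (SE 0.14), Esrrg by 1.11 (SE 0.08), Ppargc1a by 0.72 (SE 0.08), Esrrb by 0.51 (SE 0.06), Ppargc1b by 0.40 (SE 0.12) and Esrra by 0.15 (SE 0.05) per 0.01 of coverage, all past the threshold, and Pparg had a slope of -0.11 (SE 0.10, adjusted p = 0.411 in edgeR). Ppara was at 2.98 to 9.30 TPM in the 8 libraries of the lower class and at 0.430 to 1.84 TPM in the 10 of the higher class. These ranges do not overlap, and each class holds WT and mutant mice. Among the fuel switch genes Pdk4 fell by 0.84 (SE 0.14; by 0.52 without mutant mouse 33-1), while Ucp3, Angptl4 and Mlycd had slopes of -0.45 (SE 0.18), -0.30 (SE 0.24) and -0.04 (SE 0.06) that did not pass. Ucp3 fell past the threshold with library totals (by 0.55), without lane and RNA concentration (by 0.46) and in both limma fits (by 0.59 and 0.69), and Mlycd in both limma fits (by 0.24 and 0.34). Both acyl-CoA synthetases fell, Acsl1 by 0.59 (SE 0.05) and Acsl3 by 0.39 (SE 0.11), as did Cd36, by 0.46 (SE 0.07).

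The slopes of the 12 enzymes of the cycle ran from -0.39 to 0.16. Of these, 5 fell (Acadm by 0.39, Hadhb by 0.31, Hadha by 0.21, Echs1 by 0.19 and Hadh by 0.18), Acaa2 rose by 0.16 (SE 0.05; 0.06 with library totals, not called, and -0.14 in limma on rescaled TPM), and Acadvl had a slope of 0.01 (SE 0.05). In electron transfer Etfb rose by 0.43 (SE 0.06; 0.06 and not called in limma on rescaled TPM) whereas Etfa fell by 0.23 (SE 0.06) and Etfdh by 0.40 (SE 0.06), and the Etfa to Etfb ratio was 0.451 to 0.574 in the lower coverage class and 0.204 to 0.518 in the higher. Cpt1a and Slc25a20, the carnitine-acylcarnitine carrier, fell by 0.25 (SE 0.05) and 0.28 (SE 0.05), and Cpt1b and Cpt2 had slopes of -0.06 (SE 0.05) and -0.02 (SE 0.05) that did not pass. With library totals both fell past the threshold, by 0.17 and 0.12, and in limma on rescaled TPM Cpt1b did, by 0.37. On CPM, 5 of the 39 genes (Cd36, Acsl1, Etfdh, Ppara and Ppargc1a) were higher in all 8 libraries of the lower class than in any of the other 10, and none was lower; such a gap in either direction was found for 4.70% of all genes tested and 8.63% of those expressed.

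**Figure D4:**
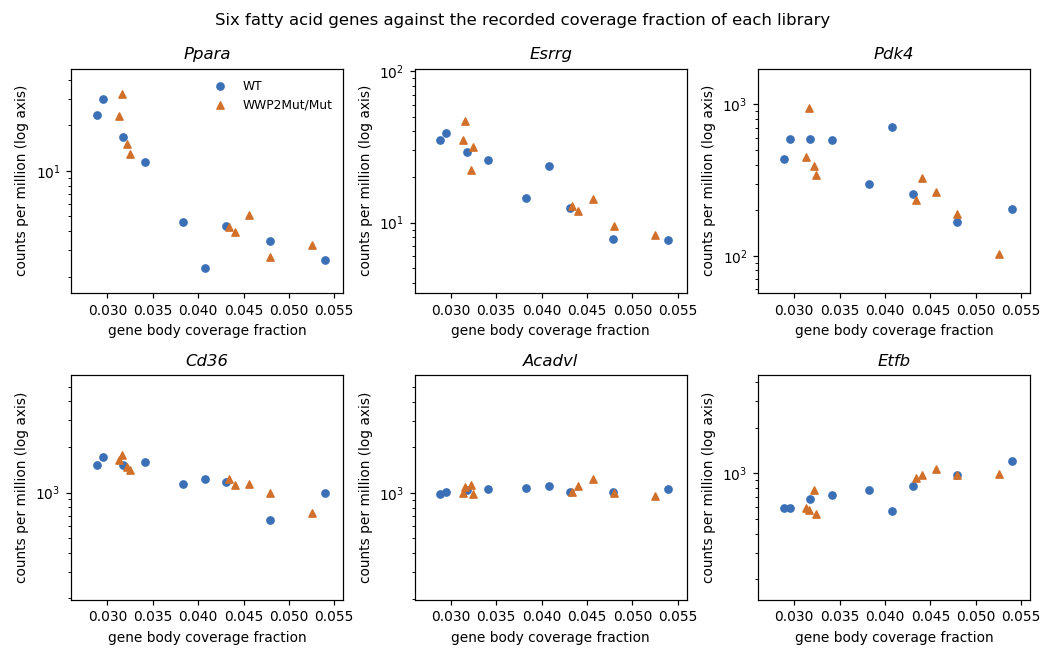
CPM (y axis, log axis of the same span in each panel) against the gene body coverage fraction (x axis) in 18 libraries, WT as circles and WWP2Mut/Mut as triangles, for 6 genes. Ppara, Esrrg, Pdk4 and Cd36 fall along the axis in both genotypes, Acadvl has a slope of 0.01 on the log2 scale per 0.01 and Etfb rises by 0.43.

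Each genotype was also fitted alone, with coverage as the sole term and without lane or RNA concentration, so these slopes come from a simpler model than those above. In the 9 WT mice 19 of the 39 genes fell and 1 rose past the threshold (51.3% in either direction, beside 34.7% of expressed and 21.8% of all genes), and in the 9 mutants 14 fell and 1 rose (38.5%, beside 32.8% and 21.7%). Of the 22 genes called over all mice, 14 passed in both genotypes, 4 (Echs1, Esrra, Etfa and Hadh) in WT alone and 4 (Acaa2, Acot2, Acsl3 and Hadha) in neither. Ppara had slopes of -1.51 (SE 0.20) and -1.56 (SE 0.16), Esrrg of -0.99 (SE 0.11) and -1.04 (SE 0.11) and Etfb of 0.36 (SE 0.07) and 0.41 (SE 0.09) in WT and mutants. Eci2 and Plin5, not called over all mice, passed in WT alone and Ucp3 in mutants alone. The slopes in WT and mutants were -0.29 (SE 0.07) and -0.01 (SE 0.11) for Plin5, -0.80 (SE 0.34) and -0.09 (SE 0.14) for Angptl4, and 0.00 (SE 0.11) and -0.22 (SE 0.10) for Lpl. Whether the slopes differ between genotypes was not tested. With any 1 mouse left out, 14 (without mutant mouse 33-1) to 22 (without WT mouse 45-1) of the 39 genes fell past the threshold, beside 22.5% and 29.9% of expressed genes. The call held in all 18 such fits for 13 of the 22 genes. Without mutant mouse 33-1 it was lost by 7 (Acaa2, Acot2, Acsl3, Echs1, Etfa, Hadh and Hadha, the last with a slope of -0.14). Acot2 also lost it without any of 10 other mice, Acaa2 without WT mouse 16-1 or mutant 1-2, Echs1 without WT mouse 94-2 and Hadh without mutant 1-2. Esrra lost it without WT mice 25-3 or 94-2 or mutants 1-2 or 24-3, and Ppargc1b without WT mouse 43-3 or mutant 1-2.

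Transcript length varied with the slope. Taking the longest annotated transcript in GENCODE M21, the 7 members under 2000 bases had a median slope of 0.12, the 14 from 2000 to 3000 bases one of -0.11 and the 18 longer ones one of -0.40, beside 0.21, 0.03 and -0.11 in expressed genes of the same lengths. Of the longest 18, 15 fell past the threshold (83.3%) and 0 rose, while of the 7534 expressed genes of that length 39.8% fell and 12.3% rose; the members were not tested against them. The 2 genes that rose, Etfb (893 bases) and Acaa2 (1516 bases), were among the 7 shortest, of which 1 fell. Of expressed genes under 2000 bases 49.1% rose and 6.85% fell. Across the 39 genes Spearman's rho between slope and length was -0.64, and across 13117 expressed genes with a length -0.45; genes of the same libraries are not independent, and the values are descriptions. The fraction's definition and RNA integrity were not given in the sources used here, so the part of RNA quality in these levels was not tested.

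**Figure D5:**
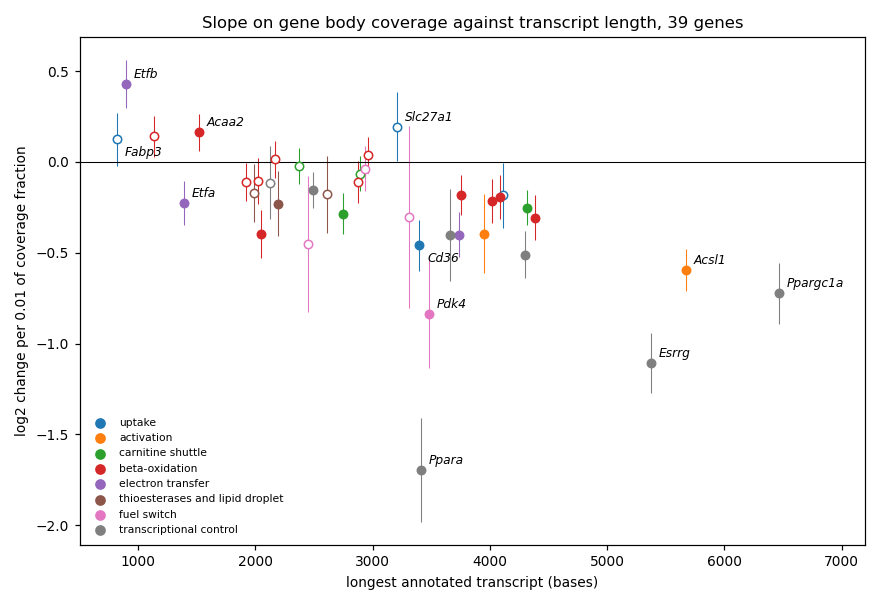
Slope of each of the 39 genes on gene body coverage (y axis, log2 per 0.01 of the fraction, with 95% intervals) against its longest annotated transcript (x axis, bases), coloured by role, filled where the adjusted p is below 0.05. Etfb at 893 bases has a slope of 0.43, and Esrrg at 5373 bases one of -1.11.

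With the coverage fraction added to the genotype model, the standard error fell for all 39 genes, to a median of 0.10, and 0 of 39 were called. The count above 0 then became 32 of 39 with a median log2 difference of 0.06, while 52.7% of expressed genes were above 0. Ppara moved from -0.07 to 0.49 (SE 0.23, 95% interval 0.02 to 0.97), the 1 member with an unadjusted p below 0.05, as 5.37% of all genes had (adjusted p = 0.920 in edgeR), and Pdk4 from -0.54 to -0.33 (SE 0.23).

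The rest of fatty acid metabolism was taken from 6 lists that hold no member. No gene of the 15 for peroxisomal oxidation, 19 for other acyl-CoA and carnitine steps, 15 for triglyceride storage and lipolysis, 12 for fatty acid synthesis and malonyl-CoA, 6 for ketone bodies or 21 for nuclear receptor partners was called in either direction between genotypes in edgeR, with 0.00403% of all genes called, and 2 had an unadjusted p below 0.05. Their median log2 differences ran from -0.06 to -0.02. Scd1, the desaturase that makes oleate, was at 3.55 ± 1.74 TPM (SD, n = 9) in WT and 2.31 ± 0.470 TPM (SD, n = 9) in mutants, a log2 difference of -0.59 (SE 0.16, adjusted p = 0.858 in edgeR). Bbox1, the last enzyme of carnitine synthesis, was at 0.0556 ± 0.0713 and 0.0289 ± 0.0434 TPM (SD, n = 9; log2 difference -2.04, SE 0.66, adjusted p = 0.946 in edgeR), so its fitted difference rests on counts close to 0. Among the genes of smallest p in the other lists were Acaa1b and Ehhadh of the peroxisome, G0s2 and Agpat2 of triglyceride metabolism, Slc16a1 of the ketone body list and Pprc1 of the receptor partners, with log2 differences from -1.25 (Acaa1b) to 0.20 (G0s2). With the coverage fraction, 39 of these 87 distinct genes (Lpin1 is in 2 lists) fell and 12 rose past the threshold, 58.6% in all beside 51.2% of expressed genes.

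The marker lists of other cell types, which share no gene with the 39 members, had 0 genes called between genotypes. All 10 liver genes were lower in mutants at an unadjusted p below 0.05, with a median log2 difference of -1.90, and the summed liver level was 2.53 to 303 TPM in WT and 3.79 to 55.2 TPM in mutants. With the log2 of that sum as a covariate 6 of the 39 members changed sign, 8 moved by more than 1 SE (Ppara to -0.94, Esrrg to -0.73, Ppargc1a to -0.46, Acsl1 to -0.37, Ppargc1b to -0.33, Esrrb to -0.32, Lpl to -0.06 and Slc27a1 to 0.15) and 0 were called. Of the 10 liver genes, 2 (Alb and Apoa2) rose with the coverage fraction past the threshold, beside 22.7% of expressed genes. The median slope of the liver list was 0.90. The liver sum and the fraction thus varied together in part, and their shares in these shifts were not tested. The adipocyte sum was 0.05 to 23.6 TPM in WT and 0.220 to 11.7 TPM in mutants, and 5 of its 6 genes had a mean under 1 TPM. The atrial sum was 393 to 1136 TPM and 329 to 1210 TPM. It was mostly Nppa, which the remodelled ventricle also makes, except in WT mouse 45-1, where Sln, Myl7 and Myl4 made 628 of 1032 TPM. Myl7, the atrial myosin light chain, was at 0.09 to 338 TPM in WT and 0.34 to 214 TPM in mutants, and Sln at 0 to 35.1 TPM and 0.02 to 18.3 TPM. The sum of Sln, Myl7 and Myl4 had a median of 5.02 TPM in WT and 6.38 TPM in mutants. It was 162, 293 and 628 TPM in WT mice 84-2, 43-3 and 45-1 and 93.1 and 405 TPM in mutants 22-3 and 8-2, against 17.1 TPM or less in the other 13. With the log2 of the whole atrial list's sum as a covariate 3 of the 39 members changed sign and 1 had an unadjusted p below 0.05. With that of the adipocyte list 3 changed sign. With the log2 of the sum of Sln, Myl7 and Myl4 as a covariate, chosen after seeing the data, 0 of the 39 members changed sign, 0 moved by more than 1 SE and 0 were called. The brown adipocyte sum, nearly all of it Cidea, was 23.4 to 31.2 TPM and 22.1 to 28.9 TPM with Ucp1 at 0.0300 TPM or less in every mouse. The summed levels in WT and mutants were 200 to 561 and 238 to 444 TPM for fibroblasts, 148 to 210 and 134 to 232 TPM for endothelium, 221 to 370 and 220 to 351 TPM for smooth muscle and pericytes, 173 to 324 and 175 to 278 TPM for immune cells and 534 to 3871 and 846 to 4121 TPM for erythrocytes. No list had a gene at 0 in all mice. The part of these cells in the members' levels was not tested beyond the adipocyte, liver and atrial covariates, with which 0 of 39 members were called.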

How the data were processed

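Poly(A) RNA libraries of 18 left ventricles were grouped by the genotype in their labels. The authors aligned reads to mouse m38 (Ensembl 89) with STAR 2.5.2b, quantified genes with RSEM 1.2.31 and deposited the expected count of each gene, of which 5.11% of values were not whole, after removing rRNA and mitochondrial genes. The deposited TPM were scaled per mouse by the authors and sum to 671770 to 826381. The deposited sample table gives lane, RNA concentration, absorbance and a gene body coverage fraction, made by the authors in a way not given in the sources used here. Here expected counts were rounded, filtered to genes with more than 1 count in total (24804 of 51435) and tested with edgeR 4.0.16 (TMM, quasi-likelihood, lane and centred RNA concentration as covariates), with Benjamini-Hochberg adjustment over all genes and a threshold of 0.05. DESeq2 1.42.0 and limma 3.58.1 (log2(TPM + 1) or log2(TPM + 0.1)) were alternatives, as were other scalings, filters and covariates and leaving out each mouse. Fits were tested on simulated data. Single TPM differences were tested by exact permutation. The 39 members and all lists were chosen with earlier results of these data known. The lowest, median and highest TPM per genotype are given in the text for the 6 members of smallest p and 12 fixed ones (Cd36, Lpl, Cpt1a, Cpt1b, Hadha, Pdk4, Ucp3, Angptl4, Ppara, Pparg, Ppargc1a and Esrra, 2 of which are also among the 6), and for each pathway list up to 2 genes of smallest p are named, some of which are not reported here; other genes named were chosen after their values were seen. Symbols matched 99.6% of gene rows, and each column of per-sample values was matched to a mouse; the absorbance ratios entered no fit. Replicates are separate mice. Libraries held 24566994 to 37451087 counts, and the lowest count of a member in a mouse was 60 (Ppara).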

Additional observations from a re-analysis of the deposited data

Results flagged for a closer look

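Among 78 groups of 9 mice (39 genes in each genotype), the lowest or highest TPM stood apart from the rest by Dixon's criterion, a gap to the nearest mouse that was large against the group's range, in 3. Chance flags about 1 in 20 groups. Slc27a1 was at 69.51 TPM in WT mouse 45-1 with the next WT mouse at 37.02 TPM, and Ucp3 was at 38.16 TPM in the same mouse with the next at 19.08 TPM. This mouse also had the highest summed liver (303 TPM) and adipocyte (23.6 TPM) marker levels and the highest sum of the atrial genes Sln, Myl7 and Myl4 (628 TPM) of the 18, whose part in these values was not tested. Pdk4 was at 207.03 TPM in WWP2Mut/Mut mouse 33-1, with the next mutant at 106.39 TPM and the mutant median at 58.87 TPM.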

How the results depend on the processing

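Under 35 alternatives (17 settings and 18 fits with a mouse left out), 0 of the 39 genes were called between genotypes, and Wwp2 was called in each. The log2 difference of 7 genes (Acadl, Acot1, Angptl4, Cpt1b, Etfb, Hadha and Pdk4) kept its sign in all 35. The count of genes above 0, 16 of 39, became 9 with library totals alone, 32 with gene body coverage added, 28 with coverage in place of RNA concentration (chosen after seeing the data) and 2 in each limma fit on TPM (log2(TPM + 1), log2(TPM + 0.1) and rescaled TPM), where the median of expressed genes also moved, to between -0.12 and -0.17 from -0.01; the cause was not tested. With a mouse left out it ran from 9 (without mutant 53-1) to 28 (without WT 25-3), and with the RNA concentration of WT mouse 43-3 multiplied by 100, also chosen after seeing the data, it was 19. On mean TPM, the count of 2 was 35, 5 and 11 within lanes 1, 2 and 4. The count falling with coverage, 20 beside 28.4% of expressed genes, was 33 beside 57.2% in limma on rescaled TPM and 19 to 30 beside 27.8% to 46.8% in the other 6 settings tried, all chosen after seeing the data. The paper compared mutants with WT littermates, but the sample labels used here state no litter, so no analysis paired by litter was run. The lowest count of any member in a mouse was 60 (Ppara).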
